A study of Sus scrofa with 24 samples.

Results

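Subcutaneous adipocytes of the pig were compared between day 2 and day 4 of differentiation by small RNA sequencing, in 6 of the 24 libraries of the series. The 6 libraries were chosen by their labels, 3 for day 2 (BF-2d) and 3 for day 4 (BF-4d). The cells came from the back fat of 6-day-old Yorkshire piglets and were isolated with collagenase as preadipocytes. They were grown and then held for 2 days in a medium with IBMX, dexamethasone and insulin, which raises cAMP and activates the glucocorticoid receptor. From day 2 to day 4 cultures were kept in a maintenance medium, which was growth medium with insulin. BF-2d thus marks the end of the induction cocktail and BF-4d the end of the insulin step. Intramuscular preadipocytes from the longissimus dorsi (IMF-2d and IMF-4d, 3 libraries each) went through the same media and serve here as the comparison. Nothing in the sources used here ties a replicate number to an animal or a culture, so the p-values measure the spread between these libraries, which may be technical. Cultured primary cells are a mixture, and a lower level in a bulk library cannot tell fewer cells of a type from less RNA per cell.

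MicroRNAs (miRNAs) are RNAs of about the same short length that are cut from hairpin precursors and loaded into an Argonaute protein. Bases 2 to 8 of the mature strand, the seed, pair with target mRNAs, and miRNAs with the same seed are counted as a family because they share most predicted targets. In fat cells, members of the miR-30 and miR-143 families are known for promoting differentiation, while the let-7, miR-27, miR-130 and miR-221 and miR-222 families are known for restraining it.

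The mature strands on which the comparison turned are given 5′ to 3′ with the seed in capitals, as listed in the study's miRNA table. The first set comes from one X-linked locus, where miR-222 and miR-221-3p share a seed and miR-221-5p is the other arm of the miR-221 hairpin:
ssc-miR-222: aGCUACAUcuggcuacugggucuc
ssc-miR-221-3p: aGCUACAUugucugcuggguuu
ssc-miR-221-5p: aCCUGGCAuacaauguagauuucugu

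The second set holds the pair with the seed of miR-146, of which only miR-146b passed the test:
ssc-miR-146b: uGAGAACUgaauuccauaggc
ssc-miR-146a-5p: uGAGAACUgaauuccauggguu

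The third set shows 2 pairs of neighbouring hairpins whose mature strands rose together although their seeds differ:
ssc-miR-132: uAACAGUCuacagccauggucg
ssc-miR-212: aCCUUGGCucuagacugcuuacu
ssc-miR-224: cAAGUCACuagugguuccguuua
ssc-miR-452: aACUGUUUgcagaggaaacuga

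The last set gives the largest and the smallest change of the miR-30 seed beside its called member, and the one miRNA called lower:
ssc-miR-30b-5p: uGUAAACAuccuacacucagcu
ssc-miR-30d: uGUAAACAuccccgacuggaagcu
ssc-miR-30e-5p: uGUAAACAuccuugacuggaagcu
ssc-miR-411: aUGUAACAcgguccacuaac

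Each library held between 8078414 and 13093241 reads on miRNAs, and 1 read was worth between 0.0764 and 0.124 TPM (here reads per 1e+06 reads assigned to miRNAs, with no length term). The 10 highest miRNAs took 89.5% to 91.2% of these reads on day 2 and 86.2% to 87.7% on day 4. ssc-miR-21-5p alone took 54.5% to 56.8% on day 2 and 49.0% to 55.1% on day 4. Markers of other cells were mostly scarce. Of the blood and immune list, ssc-miR-223 and ssc-miR-150 had no read in any of the 6 libraries, and the summed level of its 7 members lay between 1.86 and 2.52 TPM on day 2 and between 2.81 and 6.37 TPM on day 4. The 2 endothelial entries, ssc-miR-126-3p and ssc-miR-126-5p, summed to 26.4 to 53.5 TPM on day 2 and to 53.6 to 86.4 TPM on day 4. The sums of both lists were thus higher in each day 4 library than in any day 2 library. So were 105 of the 430 single miRNAs tested below. Neither endothelial entry passed the test, and ssc-miR-126-3p overlapped (52.6 TPM in BF-2d replicate 1, 51.7 TPM in BF-4d replicate 2). The part of such cells in the changes was not tested. The epithelial list stayed at or below 1.59 TPM in sum. The mesenchymal list, led by ssc-miR-143-3p, ssc-miR-100 and ssc-miR-10b, was abundant, at 142400 to 151800 TPM on day 2 and 117700 to 175200 TPM on day 4.

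The step from day 2 to day 4 was marked by rises. Of the 1587 miRNAs listed, 430 averaged 1 TPM or more over the 24 libraries and were tested, and 1157 did not. The entries nearest that limit averaged 0.990 TPM (novel_miR_207, outside) and 1.002 TPM (novel_miR_994, inside, with reads in 2 of the 6 libraries here). Of the 430, 26 (6.05%) passed a false discovery rate under 0.05 and a fold change above 1.5 with limma, and these are the DE-miRNAs. Of them, 25 (5.81%) were higher on day 4 and 1 (0.233%) was lower. By class, 20 of the 270 known miRNAs tested and 6 of the 160 newly predicted ones were among them. All 26 had libraries of the 2 days that did not overlap, against 150 of the 430 tested (34.9%). Among these 150, 105 were higher in every day 4 library and 45 lower.

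**Figure D1:**
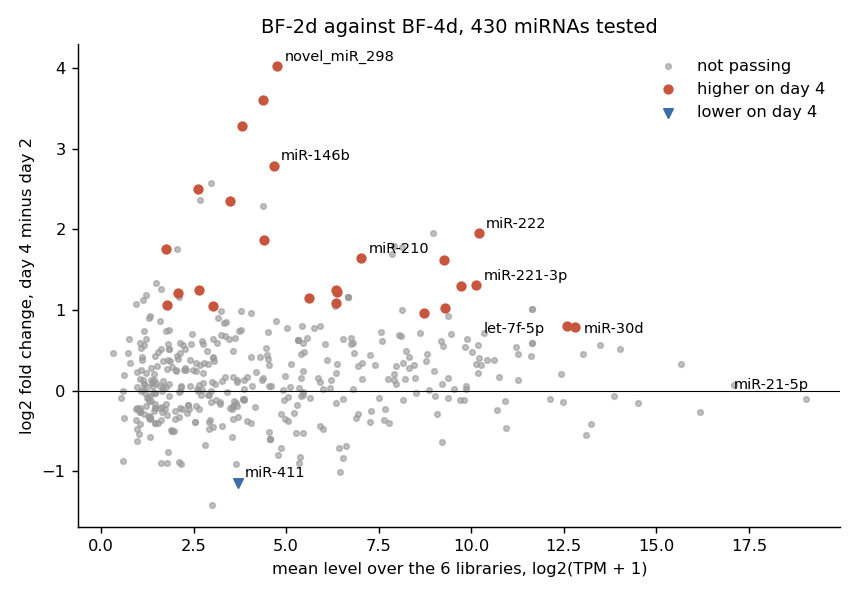
Each point is 1 of the 430 miRNAs tested, placed by mean level over the 6 libraries, as log2(TPM + 1), on the horizontal axis and by log2 fold change (day 4 minus day 2) on the vertical axis. The 25 that rose (red) lie between 0.78 and 4.03 and the one called lower (blue) at -1.14, while the most abundant miRNA, miR-21-5p, lies near 0.

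The 25 risers together took 1.26%, 1.36% and 1.13% of the reads in the 3 day 2 libraries. In the day 4 libraries they took 2.27%, 2.70% and 2.46%. The balance of rises and falls depended on the scaling. Median-of-ratios scaling moved the median change by -0.16 (log2) and called 36 miRNAs, 21 higher and 15 lower, so that 58.3% of calls were rises. Besides ssc-miR-411, those 15 included ssc-miR-21-3p, ssc-miR-27b-3p, ssc-miR-615, ssc-miR-1306-5p and ssc-miR-758, which on the TPM scale had log2 changes between -0.90 and -0.56 and did not pass. All 25 risers kept a positive change under it, and 21 kept their call. The 4 that lost it were ssc-miR-138 (adjusted p = 0.0672, limma), ssc-let-7f-5p (0.0672), ssc-miR-30d (0.0771) and ssc-miR-320 (0.0547).

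The number of calls also rested on single libraries. Without BF-4d replicate 3 it was 2, without BF-4d replicate 2 it was 3 and without BF-4d replicate 1 it was 78. Leaving out BF-2d replicate 1, 2 or 3 gave 15, 11 and 9. BF-2d replicate 3 had the lowest day 2 value for 19 of the 25 risers, and BF-4d replicate 3 the highest day 4 value for 12. The same counts were not made over all miRNAs tested. The size factor of median-of-ratios scaling was 0.98, 1.05 and 0.80 for BF-2d replicates 1, 2 and 3. For BF-4d replicates 1, 2 and 3 it was 1.05, 1.10 and 1.04. The low values in BF-2d replicate 3 were thus not shown to be particular to the risers.

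**Figure D2:**
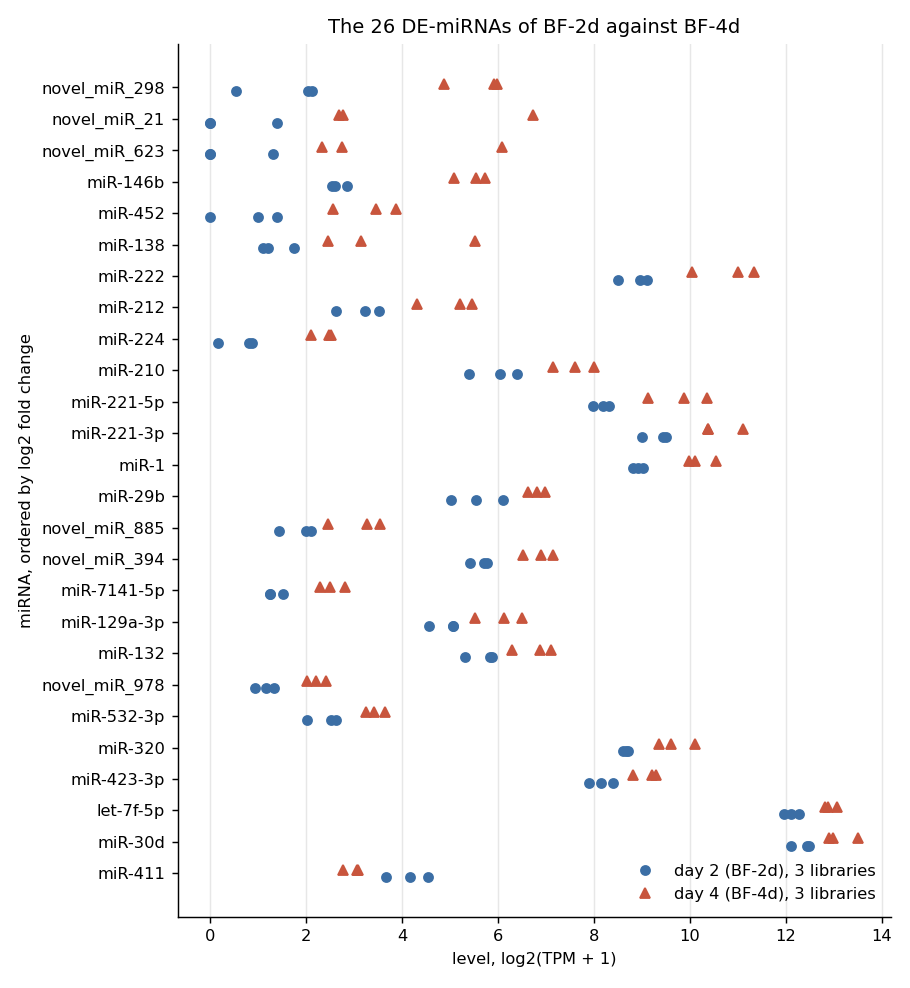
Levels of the 26 DE-miRNAs in each of the 6 libraries, as log2(TPM + 1), with day 2 as blue circles and day 4 as red triangles, ordered by fold change. In every row the 2 days are apart, and in 3 rows (novel_miR_21, novel_miR_623 and miR-138) 1 day 4 library lies far above the other two.

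The miRNAs of the miR-221 and miR-222 locus rose together. These miRNAs are known for repressing the cell cycle inhibitor p27 and the receptor KIT, and are commonly lowered in maturing fat cells of other species. ssc-miR-222 was at 547, 493 and 361 TPM in the day 2 libraries and at 1059.7, 2056 and 2577 TPM in the day 4 libraries. All day 4 values were above all day 2 values, and the log2 fold change was 1.95 ± 0.32 (SE, limma, adjusted p = 0.00685). ssc-miR-221-3p was at 689, 727 and 508 TPM on day 2 and at 1326, 1325 and 2195 TPM on day 4, a log2 fold change of 1.31 ± 0.25 (limma, adjusted p = 0.0137). The other arm, ssc-miR-221-5p, went from 249.6, 292 and 318 TPM to 561, 1302 and 931 TPM (log2 fold change 1.62 ± 0.29, limma, adjusted p = 0.0104). Each of the 3 strands was thus higher in all 3 day 4 libraries, with the least rise in BF-4d replicate 1 for miR-222 and miR-221-5p. The calls of miR-222 and miR-221-5p held in 4 of 6 fits that left out a library, and that of miR-221-3p in 3 of 6. All 3 were lost without BF-4d replicate 2 (limma, adjusted p = 0.0532 for each) and without BF-4d replicate 3 (0.0644 for each). The precursors lie 740 bases apart on the minus strand of chromosome X in Sscrofa11.1, MIR221 at chrX:40571068-40571137 and MIR222 at chrX:40571808-40571887, and the RefSeq annotation places no other gene over them.

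A second X-linked pair behaved in the same way at much lower depth. ssc-miR-224 and ssc-miR-452 lie 1053 bases apart on the minus strand (chrX:123283427-123283507 and chrX:123284480-123284559), both in introns of GABRE, a GABA receptor subunit gene on the same strand. ssc-miR-452 was at 1.61, 0.993 and 0 TPM on day 2 and at 4.92, 13.5 and 9.96 TPM on day 4 (log2 fold change 2.50 ± 0.41, limma, adjusted p = 0.00685). ssc-miR-224 was at 0.743, 0.84 and 0.114 TPM on day 2 and at 3.28, 4.55 and 4.76 TPM on day 4 (1.75 ± 0.29, limma, adjusted p = 0.00685). Between 0 and 128 reads stood behind a value of ssc-miR-452 and between 1 and 53 behind one of ssc-miR-224, so the sizes of these changes are less firm than those of miR-221 and miR-222. The pseudocount of 1 TPM also shrinks them.

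ssc-miR-132 and ssc-miR-212, a pair known as targets of the cAMP-responsive factor CREB in neurons, are cut from hairpins 429 bases apart on the minus strand of chromosome 12 (chr12:48162625-48162702 and chr12:48163054-48163135). ssc-miR-132 was at 56.1, 57.3 and 38.4 TPM on day 2 and at 77.2, 137 and 116 TPM on day 4 (log2 fold change 1.09 ± 0.28, limma, adjusted p = 0.0438). ssc-miR-212 rose from 8.42, 10.5 and 5.11 TPM to 18.9, 35.8 and 43.0 TPM (1.87 ± 0.34, limma, adjusted p = 0.0104). Both members were higher in every day 4 library. IBMX, the agent of the cocktail that raises cAMP, had then been out of the medium for 2 days. Any part of cAMP in the rise was not tested. The call of ssc-miR-132 held in 1 of 6 fits that left out a library and that of ssc-miR-212 in 3 of 6.

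The inflammation list, miRNAs known as responders to NF-κB and cytokine signals, had 3 of 7 tested members called higher and none lower, against 5.81% called higher over all 430. Its median log2 fold change was 1.09, against 0.13 over all 430. The list was chosen with earlier results of these data known, so these values are a description. The 3 were ssc-miR-132, ssc-miR-212 and ssc-miR-146b, of which the first pair comes from the single locus described above. ssc-miR-146b, a brake on Toll-like receptor signalling, had the smallest adjusted p of all. It was at 5.08, 6.19 and 4.77 TPM on day 2 and at 33.0, 51.6 and 45.2 TPM on day 4, a log2 fold change of 2.79 ± 0.24 (limma, adjusted p = 8.19e-05), and it passed in each of the 6 fits that left out a library. Its seed partner ssc-miR-146a-5p was at 124, 99.98 and 50.2 TPM on day 2 and at 188, 172 and 820 TPM on day 4, so 1 library stood far above the others and the change did not pass (1.79 ± 0.54, limma, adjusted p = 0.0747). Also short of the threshold was ssc-miR-155-5p, at 387 to 517 TPM on day 2 and 649 to 1128 TPM on day 4 (0.92 ± 0.25, limma, adjusted p = 0.0520).

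ssc-miR-210, the miRNA most closely tied to hypoxia-inducible factor, rose from 83.1, 64.4 and 41.0 TPM to 140, 192 and 255.7 TPM (log2 fold change 1.64 ± 0.31, limma, adjusted p = 0.0137). Its hairpin lies at chr2:335271-335346 on the minus strand. The 2 groups were apart by more than their own spread, with means of 62.8 ± 21.1 and 196 ± 57.9 TPM (SD, n = 3 each).

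Of the list of miRNAs known for promoting adipogenesis, 3 of 19 tested members were called higher, none lower, with a median of 0.47, beside 5.81% called higher and a median of 0.13 over all 430. Of the list known for restraining it, 5 of 22 were called higher against the same 5.81%, none lower, with a median of 0.32. The 3 of the first list were miR-146b, miR-210 and miR-30d, and the 5 of the second were let-7f-5p, miR-138, miR-221-3p, miR-222 and miR-224. Of these, miR-146b was also on the inflammation list, and miR-221-3p and miR-222 share a locus. Both lists were chosen with earlier results of these data known, so these shares are a description. Median-of-ratios scaling left the medians of both lists positive, at 0.29 and 0.13. It dropped the call of miR-30d from the first list and those of let-7f-5p and miR-138 from the second. It also called ssc-miR-27b-3p, a repressor of PPARG on the second list, lower (-0.74, limma, adjusted p = 0.0469), so that under it the calls of that list went both ways. On the TPM scale ssc-miR-27b-3p did not pass, at 9721, 10905 and 10765 TPM on day 2 and 7990.1, 6364 and 7059 TPM on day 4 (-0.56 ± 0.15, limma, adjusted p = 0.0520).

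Within seed families the members had changes of different sizes. The 5 members with the miR-30 seed summed to 5734 to 7537 TPM on day 2 and 9685 to 15216 TPM on day 4, and ssc-miR-30d made up most of that sum. It rose from 5558, 5721 and 4413 TPM to 7594, 11608 and 8118 TPM (log2 fold change 0.78 ± 0.19, limma, adjusted p = 0.0405). This call held in 1 of 6 fits that left out a library, and was lost with median-of-ratios scaling, with a total without miR-21-5p (0.0599) and with edgeR (0.0602). The largest change of the family belonged to ssc-miR-30b-5p, whose 167, 138 and 59.5 TPM on day 2 and 178, 565 and 569 TPM on day 4 did not pass (1.78 ± 0.48, limma, adjusted p = 0.0520). ssc-miR-30e-5p, in contrast, had a change of -0.03 ± 0.21 with overlapping libraries. The hairpins of miR-30d and miR-30b lie 4125 bases apart on chromosome 4.

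The let-7 seed was held by 8 tested members. Their summed level was 55187 to 63999 TPM on day 2 and 70690.0 to 83008 TPM on day 4, of which let-7i-5p was the main part. Of the 8, 1 passed, beside 5.81% called higher over all 430. It was ssc-let-7f-5p, at 4002, 4928 and 4427 TPM on day 2 and 8607, 7218 and 7502 TPM on day 4 (log2 fold change 0.81 ± 0.16, limma, adjusted p = 0.0150). Its call held in 2 of 6 fits that left out a library and was lost with median-of-ratios scaling and with edgeR (adjusted p = 0.0633). The other 7 had changes between 0.14 and 0.54. Over the 11 entries of the wider let-7 list, both arms included, the median change was 0.17 and turned to -0.01 under median-of-ratios scaling, as did that of the 10-entry miR-30 list, from 0.15 to -0.02. The opposite arm of the called hairpin, ssc-let-7f-3p, changed by -0.13 ± 0.22.

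Of the 4 tested members of the miR-29 family, known for silencing collagens and other matrix genes, ssc-miR-29b rose from 68.0, 45.2 and 31.5 TPM to 98.3, 111 and 124.8 TPM (log2 fold change 1.25 ± 0.29, limma, adjusted p = 0.0327). It was the one member called, beside 5.81% called higher over all 430. Its call held in 2 of 6 fits that left out a library and was lost with edgeR (adjusted p = 0.0530). ssc-miR-29c, which has the same seed, was near 1 TPM, and ssc-miR-29a-3p changed by 0.56 without passing. ssc-miR-29b and ssc-miR-29c lie 559 bases apart on chromosome 9.

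**Figure D3:**
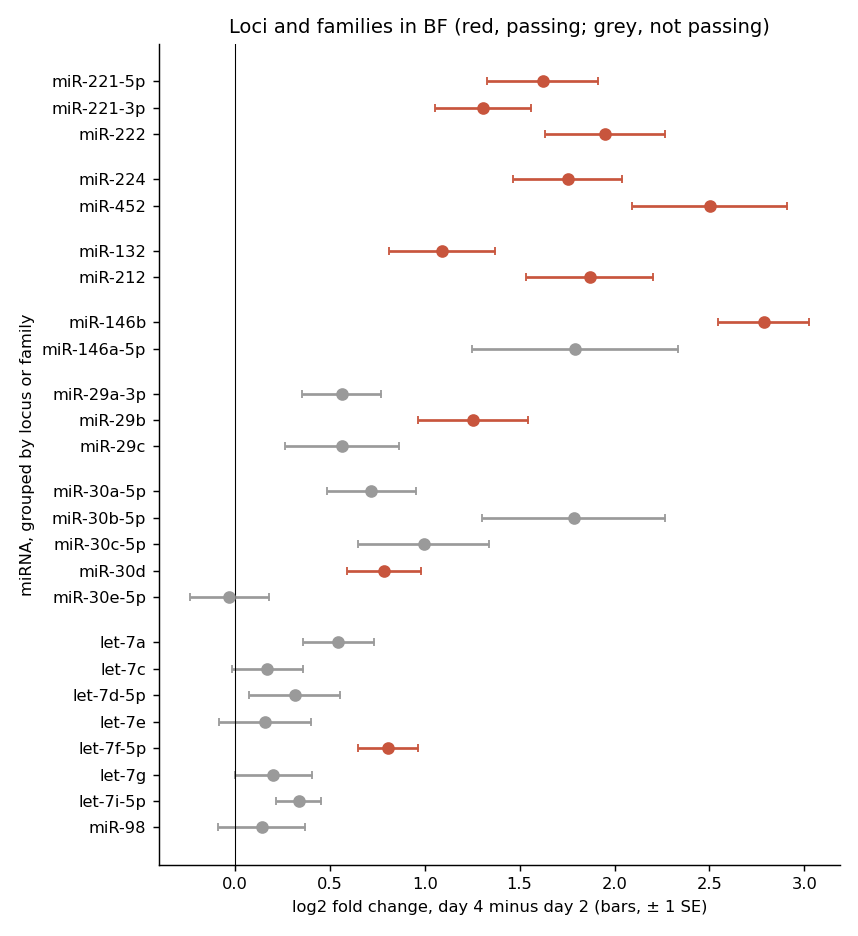
Log2 fold change from day 2 to day 4 in BF (points) with 1 standard error to each side (bars) for members of 7 loci or families, red where the DE-miRNA criteria were met. The miR-221 and miR-222, miR-224 and miR-452 and miR-132 and miR-212 loci are red throughout, while in the miR-146, miR-29, miR-30 and let-7 families 1 member each is red.

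ssc-miR-1, a miRNA of heart and skeletal muscle, rose from 484, 519 and 450.3 TPM to 1499.7, 1011 and 1099 TPM (log2 fold change 1.29 ± 0.22, limma, adjusted p = 0.00685). It was the one member of the muscle list called, of 3 tested, beside 5.81% called higher over all 430. ssc-miR-133a-3p was at 9.90, 10.7 and 8.75 TPM on day 2 and at 11.8, 21.9 and 30.2 TPM on day 4 (0.96, limma, adjusted p = 0.0820), and ssc-miR-499-5p, at 8.99 to 19.4 TPM in the 6 libraries, had a change of -0.38. Of the other muscle markers, ssc-miR-133b was at or below 0.987 TPM, and ssc-miR-206 and ssc-miR-499-3p had no read in any of the 6 libraries. Over the 7 of 8 list members present in the table, the summed level was 475 to 544 TPM on day 2 and 1043 to 1526 TPM on day 4, nearly all of it miR-1.

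Newly predicted miRNAs held the 3 largest changes. novel_miR_298 was at 3.34, 3.13 and 0.454 TPM on day 2 and at 28.3, 59.6 and 62.4 TPM on day 4 (log2 fold change 4.03, limma, adjusted p = 3.63e-04), and it passed in each of the 6 fits that left out a library. novel_miR_21 and novel_miR_623 had no read in 2 of the day 2 libraries and 1.61 and 1.49 TPM in BF-2d replicate 1. On day 4 novel_miR_21 was at 105, 5.39 and 5.83 TPM and novel_miR_623 at 66.9, 4.02 and 5.74 TPM. In both, BF-4d replicate 1 alone accounts for most of the mean. Both passed in 2 of 6 fits that left out a library, and DESeq2 on the whole reads gave neither an adjusted p. The mature sequence of novel_miR_623 was in the table and its hairpin matched chr4:27509168-27509275 on the minus strand, outside annotated genes.

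novel_miR_394 rose from 41.5, 51.1 and 53.6 TPM to 90.1, 118 and 141 TPM (log2 fold change 1.23 ± 0.25, limma, adjusted p = 0.0163). Its hairpin lies at chr9:16627929-16628037 on the plus strand, opposite an intron of the lncRNA LOC106504828. novel_miR_885 and novel_miR_978 rose by 1.24 and 1.07 on the log2 scale from levels of 1 to 3 TPM.

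Among the remaining risers, ssc-miR-138, known for restraining differentiation of mesenchymal stem cells, was at 2.35, 1.30 and 1.14 TPM on day 2 and at 4.45, 7.83 and 44.6 TPM on day 4, and here 1 library set the mean. Its log2 fold change was 2.35 ± 0.61 (limma, adjusted p = 0.0475). ssc-miR-320 rose from 406, 386 and 419 TPM to 649.7, 1092 and 774 TPM (log2 fold change 1.02 ± 0.23). Its hairpin (chr14:6520901-6520980, minus strand) overlaps an exon of POLR3D, an RNA polymerase III subunit gene on the opposite strand. ssc-miR-423-3p, from an intron of NSRP1 on chromosome 12, rose from 333, 281 and 237 TPM to 623, 588 and 449 TPM (0.96 ± 0.23), while its other arm ssc-miR-423-5p changed by 0.54 without passing. ssc-miR-532-3p (1.05), ssc-miR-129a-3p (1.15) and ssc-miR-7141-5p (1.20) completed the rises. Likewise the other arms ssc-miR-532-5p (0.38) and ssc-miR-129a-5p (1.01) did not pass. The calls of ssc-miR-138, ssc-miR-320, ssc-miR-423-3p, ssc-miR-532-3p and ssc-miR-129a-3p each held in 1 of 6 fits that left out a library. With edgeR those of ssc-miR-138, ssc-miR-320, ssc-miR-532-3p and ssc-miR-129a-3p were lost (adjusted p = 0.0530 for each).

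ssc-miR-411 was the one miRNA called lower on the TPM scale, from 16.8, 22.2 and 11.7 TPM to 7.38, 7.51 and 5.83 TPM (log2 fold change -1.14 ± 0.26, limma, adjusted p = 0.0327). Its call held in 2 of 6 fits that left out a library. It belongs to the imprinted DLK1-DIO3 locus, whose hairpins lie on an unplaced scaffold of this assembly. Of 13 tested members of that locus list, it was the one called, beside 0.233% called lower over all 430, and the median change of the list was -0.14 against 0.13 over all 430. Within 50000 bases of its hairpin, 13 other miRNAs were tested and none passed, beside 6.05% over all 430. The change was above 0 in 7 of them, and in 61.4% of all 430. The nearest, ssc-miR-299 at 456 bases and ssc-miR-323 at 2405 bases, had changes of 0.07 and -0.14. The lowest values belonged to novel_miR_638 (-1.42) and novel_miR_716 (-0.91, limma, adjusted p = 0.0570), and the latter, like ssc-miR-758 of the locus list, was called lower under median-of-ratios scaling. The lists of the miR-17-92 cluster (10 tested), miR-15, miR-16 and miR-424 (15), the HOX clusters (6), miR-99, miR-100 and miR-125 (6), miR-181 (3) and miR-23, miR-24 and miR-27 (8) held no call in either direction on the TPM scale, beside 6.05% called over all 430. Median-of-ratios scaling called ssc-miR-27b-3p and ssc-miR-615, a member of the HOX list, lower. In the miR-532 and miR-660 cluster on chromosome X, 1 of 6 was called.

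The other abundant miRNAs did not pass the threshold. ssc-miR-148a-3p was at 132855 to 140561 TPM on day 2 and 135574 to 147925 TPM on day 4 (log2 fold change 0.07). ssc-miR-143-3p was at 74742 to 83328 TPM on day 2 and 53453 to 73966 TPM on day 4 (-0.27 ± 0.13), lower in each day 4 library without passing. novel_miR_528, ssc-miR-1306-5p and ssc-miR-615 had changes of -0.71, -0.80 and -0.83 (limma, adjusted p = 0.0768 for each), also with all day 4 libraries below all day 2 libraries.

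Seen over the whole course, the risers did not all keep their day 4 level. Of the 25, 11 had their highest BF mean on day 4 and 14 on day 8. Only 1, ssc-miR-320, had every day 8 library below every day 4 library. Among the 11, the day 4 mean of ssc-miR-138 rested on BF-4d replicate 3. In all, 24 of the 25 were higher in every day 4 library than in any day 0 library, against 30.9% of all 430. The day 4 libraries also chose the risers, so these counts are a description. novel_miR_394 was the exception, with a day 0 mean of 86.9 ± 23.0 TPM (SD, n = 3). ssc-miR-320 was above all the other 21 libraries of the series on day 4 and returned to 475 ± 104 TPM on day 8. ssc-miR-210 went on to 498 ± 103 TPM and ssc-miR-29b to 190 ± 8.35 TPM on day 8, while ssc-miR-212 was at 21.8 ± 4.23 TPM there, below its day 4 mean of 32.5 ± 12.4 TPM. ssc-miR-1 and ssc-let-7f-5p had first been lower in each day 2 library than in each day 0 library, so that day 2 was a low point for both. ssc-miR-411 had the opposite course, with day 2 as its high point in BF and 3.002 ± 1.77 TPM on day 8. Calls between these other days were not part of the comparison.

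**Figure D4:**
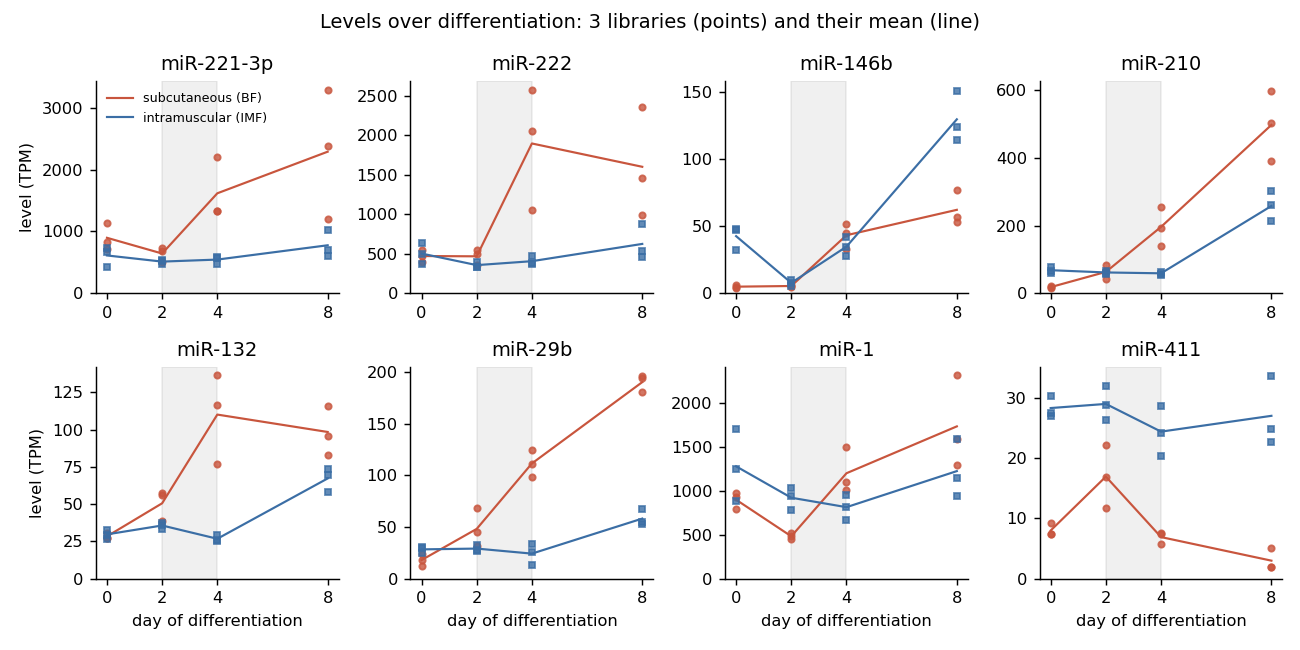
Levels (TPM) of 8 DE-miRNAs over days 0, 2, 4 and 8 in BF (red circles) and IMF (blue squares), with 3 libraries per point set, lines through their means, and the step from day 2 to day 4 shaded. miR-221-3p, miR-222, miR-210, miR-132, miR-29b and miR-1 climb in BF across the shaded step while none of them passes in IMF, where the miR-132 mean is lower on day 4, the miR-146b mean is higher on day 4 in both, and miR-411 drops in BF.

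The same 2 days in intramuscular cells gave no DE-miRNA with limma, and 65 of 430 had an unadjusted p under 0.05. DESeq2 called 2 and edgeR 1. The change itself was compared between the depots in a fit of 12 libraries, and 7 miRNAs (1.63%) had a change that differed at a false discovery rate under 0.05, all with the greater rise in BF. The count rested on single libraries. It was 55, 16 and 11 without BF-4d replicate 1, 2 and 3, 3 without BF-2d replicate 3 or IMF-4d replicate 3, and 1 without IMF-2d replicate 2. edgeR gave 3, and none passed without the filter on low values. All 7 were also DE-miRNAs of BF. They were novel_miR_298, ssc-miR-452, ssc-miR-222, ssc-miR-210, ssc-miR-1, novel_miR_394 and ssc-miR-132. For ssc-miR-222, the IMF libraries were at 335, 396 and 335 TPM on day 2 and 368, 467 and 380.3 TPM on day 4, so the depots' changes differed by 1.76 ± 0.38 (log2, limma, adjusted p = 0.0196). ssc-miR-210 was at 61.2 ± 4.66 TPM in IMF-2d and 58.7 ± 4.20 TPM in IMF-4d (SD, n = 3 each), and the difference was 1.70 (limma, adjusted p = 0.0196). ssc-miR-1 stayed between 672 and 1039.7 TPM in the 6 IMF libraries, against a rise in BF. The other 18 risers of BF were not shown to differ between the depots.

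ssc-miR-146b had a large positive change in both depots, but after unlike starts. On day 0 it was at 47.3, 32.4 and 48.2 TPM in IMF and at 6.2, 3.8 and 4.4 TPM in BF. Day 2 was a low point in IMF but not in BF. Its IMF libraries were at 7.59, 9.85 and 5.62 TPM on day 2 and 41.9, 34.7 and 27.7 TPM on day 4, a log2 change of 2.05 (limma, adjusted p = 0.0535), and the change was not shown to differ between the depots (limma, adjusted p = 0.244). Over the 25 risers the median IMF change was 0.08 beside 1.29 in BF, 16 of the 25 had an IMF change above 0, and 35.8% of all 430 did. Over all 430 the median change was 0.13 in BF and -0.10 in IMF. On day 4, 23 of the 25 risers were higher in every BF library than in any IMF library, against 41.2% of all 430, and the risers were themselves chosen on the day 4 BF libraries. The exceptions were ssc-miR-146b and ssc-miR-129a-3p.

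**Figure D5:**
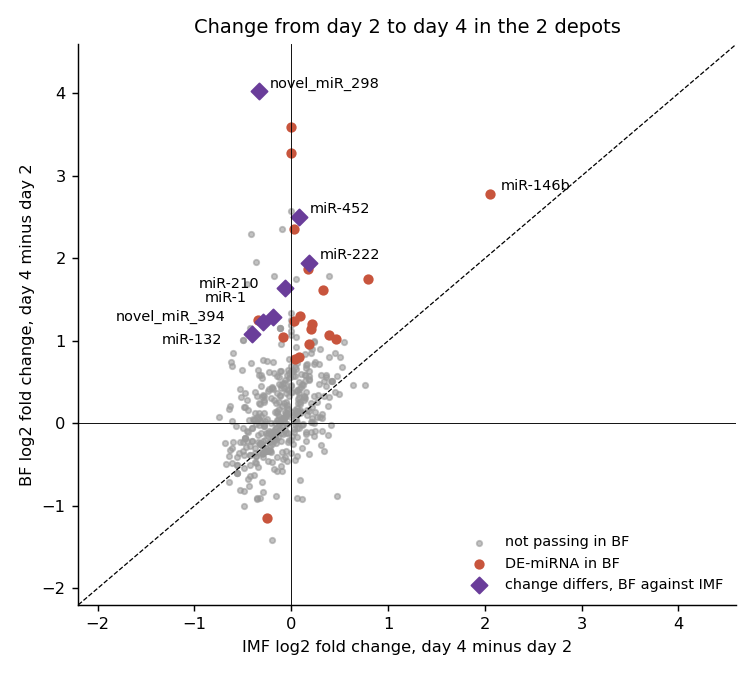
Log2 fold change from day 2 to day 4 in IMF (horizontal) against BF (vertical) for the 430 miRNAs, with the line of equal change dashed. The 7 miRNAs whose change differed between the depots (purple) lie between 1.09 and 4.03 in BF and between -0.40 and 0.19 in IMF, and miR-146b is the one DE-miRNA with a change above 2 in both.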

How the data were processed

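The authors sequenced small RNAs as single reads, mapped them to Sscrofa11.1 with Bowtie without mismatches, removed other RNA classes, matched known miRNAs to miRBase and predicted new ones with miRDeep2. The deposited RPM values (called TPM by the authors) give 1587 miRNAs in 24 libraries, each summing to 1e+06. Whole reads were recovered from these values (every value of the 6 libraries lay within 0.0177 reads of a whole number), and reads on miRNAs set the precision (1 read, at most 0.124 TPM in the 6 libraries).

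Here limma 3.58.1 (trend) was fitted to log2(TPM + 1) of the 6 libraries for the 430 entries averaging 1 TPM or more across all 24 libraries, with Benjamini-Hochberg adjustment over all 430. DE-miRNAs had a false discovery rate under 0.05 and a fold change above 1.5. Fold changes are on the log2(TPM + 1) scale and understate changes of low entries. The interaction was tested over 12 libraries. An exact permutation test of 3 against 3 libraries cannot go below p = 0.1. edgeR 4.0.16 and DESeq2 1.42.0 on the recovered whole reads served as alternatives. The fit was tested on simulated data. All replicates differed beyond sampling noise (chi-square per degree of freedom at least 50.4), so none was counted as a duplicate. Named were all DE-miRNAs, the called members of 22 lists and 5 miRNAs listed in the study for this comparison. Of the defining markers, the 10 highest entries, seed partners and neighbours within 50000 bases of a called hairpin, only part are named. miR-21-3p, miR-96-5p, miR-758, miR-155-5p and the other arms were chosen after their values were seen. The members and lists were chosen with earlier results of these data known. Mature sequences were found for 23 of the 26 DE-miRNAs, and hairpins of 22 matched the genome exactly. Target genes and mRNA libraries were not analysed here.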

Additional observations from a re-analysis of the deposited data

Results flagged for a closer look

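Between day 2 and day 4, 7 miRNAs changed differently in subcutaneous and intramuscular cells by a test of the difference itself (limma interaction, 12 libraries, false discovery rate under 0.05). BF minus IMF, on the log2 scale, the difference was 4.36 for novel_miR_298 (adjusted p = 2.36e-04), 2.42 for ssc-miR-452 (0.0229), 1.76 for ssc-miR-222 (0.0196), 1.70 for ssc-miR-210 (0.0196), 1.51 for novel_miR_394 (0.0196), 1.49 for ssc-miR-132 (0.0196) and 1.48 for ssc-miR-1 (0.0158). At an unadjusted p under 0.05 there were 77. Leaving out 1 library gave 1 (without IMF-2d replicate 2) to 55 (without BF-4d replicate 1) in place of the 7. In the intramuscular libraries novel_miR_298 was at or below 0.804 TPM on both days and at 21.4 to 24.9 TPM on day 8.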

How the results depend on the processing

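The main result was 26 DE-miRNAs (25 higher, 1 lower). With no filter on low values, 1587 entries were tested and none passed (154 at an unadjusted p under 0.05), nor did any in the comparison of depots. One fit of all 24 libraries gave 104 (86 higher, 18 lower), DESeq2 54 (35 and 19), edgeR 17 (11 and 6), a pseudocount of 0.1 gave 32 (30 and 2), median-of-ratios scaling 36 (21 and 15) and a total without miR-21-5p 27 (20 and 7). Leaving out 1 library gave 2 to 78 DE-miRNAs, 2 to 65 of them higher and 0 to 13 lower. The comparison of depots, 7 in the main result, gave 19 with a pseudocount of 0.1, 14 with a mean of at least 10 TPM, 33 in one fit of all libraries, 3 with edgeR and 14 with DESeq2, and 1 to 55 when 1 library was left out. The cause of these shifts was not tested. The replicate numbers were checked as pairs: the correlation of deviations between same-numbered day 2 and day 4 libraries was 0.16, -0.05 and -0.14. Of the 3 day 2 libraries, 1 correlated best with the day 4 library of its own number. With 3 libraries per day, these values cannot decide whether the numbers pair the libraries. A fit with the replicate block gave 42 (38 higher, 4 lower). No DE-miRNA changed sign under any alternative run. novel_miR_298 and ssc-miR-146b passed in 16 of 17 alternatives.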

Other observations

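In BF-4d replicate 3, 3 miRNAs stood far above the other day 4 libraries. ssc-miR-146a-5p was at 820 TPM there and at 188 and 172 TPM in the others, ssc-miR-96-5p at 85.3 TPM and at 11.01 and 10.5 TPM, and ssc-miR-138 at 44.6 TPM and at 4.45 and 7.83 TPM. BF-4d replicate 1 stood apart for novel_miR_21 and novel_miR_623. By day 8 all 3 BF libraries held novel_miR_21 at 90.6 to 128 TPM and novel_miR_623 at 25.8 to 43.5 TPM, while the 12 intramuscular libraries of all days had at most 1.23 TPM and 0.461 TPM.

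Across the 336 tested miRNAs with a mature sequence, the change in BF had a Pearson r of -0.20 and a Spearman rho of -0.26 with the GC content of the mature strand. These points share the same 6 libraries, so the values are a description. The median GC content was 46.6% in the risers with a sequence and 47.8% in all 336.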
